A study of Homo sapiens with 18 samples.

Results

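The 10 genes described here code for the factors that copy and transcribe the mitochondrial genome and for 2 regulators of their expression. They were chosen by gene symbol (TFAM, POLG, POLG2, C10orf2, SSBP1, POLRMT, TFB1M, TFB2M, NRF1 and PPARGC1A), and all 10 were found among the 55766 genes of the RNA table. Their RNA was followed in K562, an established human leukaemia line, beside 5-methylcytosine capture of the mitochondrial genome. All cells carried a B2M:tdTomato transgene, in which a fluorescent protein is joined to B2M, the light chain of MHC class I. The TALE group had received a mixture of 3 plasmids for 3 different repressors (ATRs in the labels), with 1 µg of the plasmid for the D3A repressor, built on TALE DNA-binding proteins aimed at the B2M promoter. The dCas9 group had received the same kind of mixture built on dCas9, an inactive Cas9 that binds where a guide RNA leads it. That mixture also held 1 µg of the plasmid for the D3A repressor, with 250 ng of guide RNA plasmid. The untreated group received none of these, and the labels give neither a mock transfection nor the time between treatment and collection. Each group held 3 RNA-seq and 3 MeDIP-seq libraries. The labels do not say whether the replicates came from separate cultures, so p-values measure the spread between these samples, which may be technical.

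Mitochondria keep many copies of a small circular genome that codes for 13 proteins of the respiratory chain. It is copied by DNA polymerase gamma, whose catalytic subunit is POLG and whose accessory subunit is POLG2, with the helicase Twinkle (C10orf2, now TWNK) and the single-strand binding protein SSBP1. It is transcribed by the polymerase POLRMT with TFB2M, which opens the promoter, and with TFAM, an HMG-box protein that also coats and packs the DNA. TFB1M, a relative of TFB2M, methylates the small ribosomal RNA of mitochondria. The nuclear factor NRF1 binds promoters of several of these genes, and PPARGC1A is a coactivator that works with NRF1.

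RNA libraries held between 8460076 and 12050554 counts and MeDIP libraries between 2529729 and 4492751 counts within listed regions. The targeted gene matched the labels: B2M_tomato had between 3115 and 4109 counts in the untreated libraries and between 128 and 205 in the TALE and dCas9 libraries, and the entry B2M had 48 to 79 and 2 to 7. The 10 K562 markers (globins and other erythroid or megakaryocyte genes) were all in the table, with a summed level of 7852 to 8531 counts per 1000000 (CPM) in untreated, 6261 to 10109 in TALE and 6490 to 9729 in dCas9 libraries. Of 13 markers of other cell types, 12 were in the table, and 0 of them was at 0 in every library. Their summed level was 290 to 313, 272 to 356 and 310 to 331 CPM in the same order. Only 6 of the 12 had counts enough to test, and the sum does not show which genes carry it. In bulk samples such as these, fewer cells of a type and less RNA per cell cannot be told apart.

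The stretches before the starts of 4 transcription factors of this group are shown because they hold matches to the core of the NRF1 site. No MeDIP peak lay within 250 bases of their GRCh37 starts in any library. The same held for all 10 genes, and only 6.25% of all genes have such a peak. POLG2, a replication factor, also has 1 match and is not shown. Each line gives the 250 bases before the start on the gene's strand, 5′ to 3′, from RefSeq on GRCh38.p14, with matches to GCNTGCGC on either strand in capitals and overlapping matches run together. The positions are chr10:58385160-58385409 (plus strand) for TFAM, chr19:633538-633787 (minus) for POLRMT, chr6:155314485-155314734 (minus) for TFB1M and chr1:246566262-246566511 (minus) for TFB2M.
TFAM: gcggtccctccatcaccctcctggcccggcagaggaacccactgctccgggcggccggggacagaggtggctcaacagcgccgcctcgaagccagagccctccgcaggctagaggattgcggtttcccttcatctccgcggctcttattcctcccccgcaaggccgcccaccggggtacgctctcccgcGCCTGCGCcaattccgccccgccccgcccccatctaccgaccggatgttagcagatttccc
POLRMT: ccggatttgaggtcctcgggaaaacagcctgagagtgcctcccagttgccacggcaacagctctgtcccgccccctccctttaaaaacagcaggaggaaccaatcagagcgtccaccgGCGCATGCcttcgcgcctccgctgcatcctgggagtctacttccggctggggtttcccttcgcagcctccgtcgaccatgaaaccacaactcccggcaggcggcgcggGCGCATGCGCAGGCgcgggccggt
TFB1M: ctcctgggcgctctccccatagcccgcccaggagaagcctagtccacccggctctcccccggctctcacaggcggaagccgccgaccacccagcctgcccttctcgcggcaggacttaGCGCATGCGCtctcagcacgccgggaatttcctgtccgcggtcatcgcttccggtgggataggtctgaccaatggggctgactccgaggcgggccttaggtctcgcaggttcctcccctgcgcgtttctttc
TFB2M: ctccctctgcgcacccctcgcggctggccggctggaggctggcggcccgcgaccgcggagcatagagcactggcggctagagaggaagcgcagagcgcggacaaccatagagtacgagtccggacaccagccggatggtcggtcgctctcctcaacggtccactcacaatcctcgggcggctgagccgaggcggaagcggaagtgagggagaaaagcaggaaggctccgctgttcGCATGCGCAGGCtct

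RefSeq entries were found for 8 of the 10 genes, with none used here for C10orf2 and NRF1. In the 300 bases from 250 before to 50 after the start, the motif GCNTGCGC had 1 match at TFAM, 1 at POLG2, 4 at POLRMT, 2 at TFB1M and 2 at TFB2M. It had 0 matches at POLG, at the 3 listed starts of SSBP1 and at the 2 listed starts of PPARGC1A. Of 35116 promoters of that length, 12% held it, beside 5 of these 8 genes. A match is a description of the letters and not a measured binding site. CpG density in these windows lay between 6 and 14 per 100 bases, apart from 1 start of PPARGC1A at 1.33, against a median of 4.67 over all promoters.

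The level of these factors differed widely between genes. Counts per gene were divided by the length of 1 annotated transcript, 0.677 kb for SSBP1, 5.025 for TFAM and 1.784 for TFB2M. Gaps between genes depend on that choice. Before division, mean levels were 355 CPM for SSBP1, 252 for TFAM and 87.7 for TFB2M. Per kb of annotated transcript, mean levels over the 9 libraries were 524 CPM for SSBP1, 50.1 for TFAM and 49.2 for TFB2M. They were 15.3 for POLG2, 12.2 for TFB1M and 9.63 for POLRMT, and lower again at 5.98 for POLG, 5.51 for C10orf2 and 5.29 for NRF1. PPARGC1A was near the limit of detection at 0.03. In that order the ranges over libraries were apart between SSBP1 and TFAM, between TFB2M and POLG2, between POLRMT and POLG, and between NRF1 and PPARGC1A. The other neighbours overlapped: TFAM was above TFB2M in 6 of 9 libraries, POLG above C10orf2 in 7 and C10orf2 above NRF1 in 4, while POLG2 was above TFB1M in 9 and TFB1M above POLRMT in 8.

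**Figure D1:**
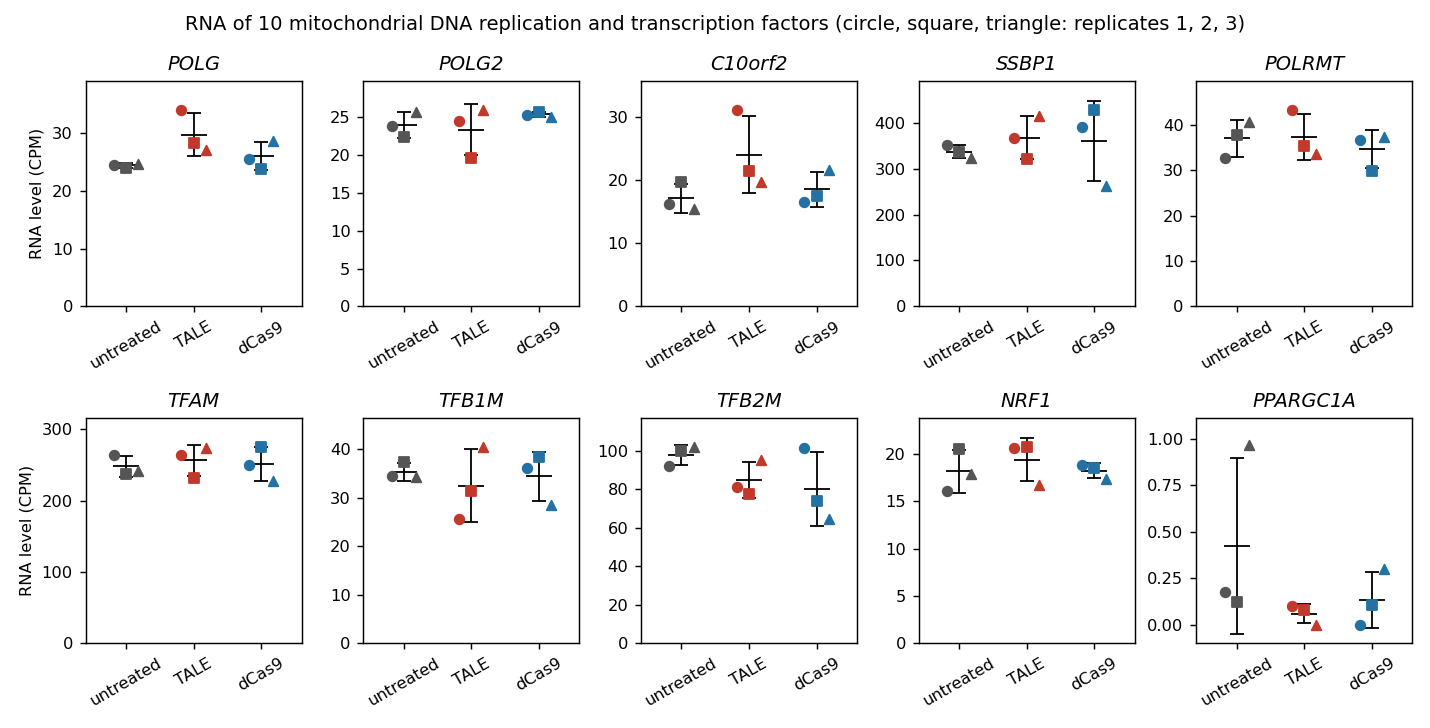
RNA level in CPM (y axis, from 0 except for the near-zero panel of PPARGC1A) in the 3 libraries of each group, 1 panel per gene; symbols are replicates, and bars are the mean and SD. Of the 9 tested genes, POLG lies higher in every TALE library than in every untreated one. PPARGC1A lies lower in CPM in every TALE library than in every untreated one, on 0 to 8 counts per library. TALE replicates 1 and 2 and untreated replicate 2 each held 1 count, so their order comes from library size alone.

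None of the 9 factors that could be tested passed the threshold, an adjusted p under 0.05, between any groups. edgeR's quasi-likelihood test called 0 of 9 in TALE against untreated, where it called 0.0218% of all 13786 tested genes, 0 of 9 in dCas9 against untreated (0.029%), 0 of 9 in TALE against dCas9 (0%) and 0 of 9 in both silenced groups against untreated (0.0363%). DESeq2 called 0 of the 9 in each. At an unadjusted p under 0.05, edgeR gave 2 higher and 0 lower for TALE against untreated (7.15% of all genes in either direction), 0 for dCas9 against untreated (5.93%), 0 for silenced against untreated (6.35%) and 1 higher for TALE against dCas9 (6.38%). The comparisons share libraries, and the 2 with a gene under that p share the 3 TALE libraries. The median log2 fold change of the 9 was 0.05 for TALE and 0.02 for dCas9 against untreated, 0.08 between TALE and dCas9 and 0.03 for silenced, and 0.00 over all genes in each. Their lowest edgeR adjusted p was 0.585, 0.857, 0.770 and 0.805 in the same order. The 95% intervals of all 9 lay between -0.52 and 0.86 for TALE against untreated and between -0.60 and 0.49 for dCas9 against untreated.

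**Figure D2:**
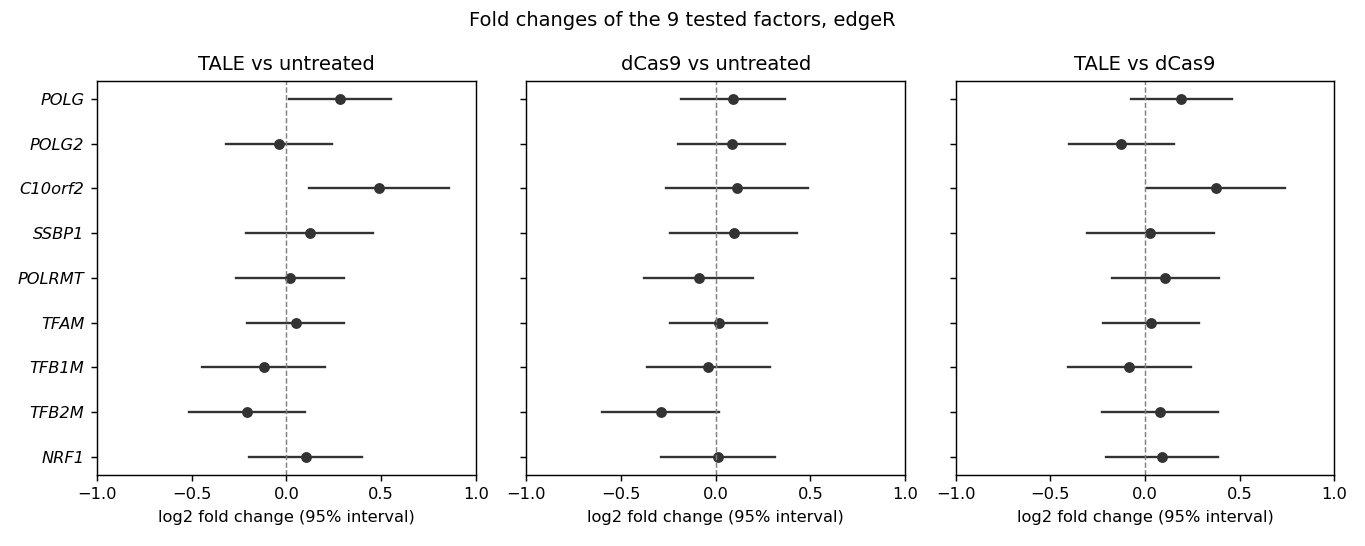
Log2 fold change (x axis) with its 95% interval from edgeR for the 9 tested genes (y axis), in 3 comparisons; the dashed line marks no difference. The intervals of POLG and C10orf2 for TALE against untreated, and of C10orf2 for TALE against dCas9, lie just above 0 before any adjustment for multiple testing.

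Of the replication machinery, POLG and C10orf2 were the genes with unadjusted p under 0.05. POLG, the catalytic subunit of the polymerase (chromosome 15, 89859551 to 89878055, minus strand, GRCh37), was at 24.5, 24.0 and 24.7 CPM in untreated replicates 1, 2 and 3, at 33.9, 28.2 and 27.0 in TALE and at 25.5, 23.8 and 28.7 in dCas9. All 3 TALE libraries lay above all 3 untreated ones, and the dCas9 libraries overlapped both. Its log2 fold change for TALE against untreated was 0.28 ± 0.13 (SE; edgeR p 0.0418, adjusted p 0.686), and the exact two-sided permutation p was 0.1, the smallest that 3 against 3 can give. Among the 9 it was the 1 gene whose groups did not overlap in that comparison, against 12.5% of all tested genes. The 9 genes had 0 such cases for dCas9 against untreated (11.6% of all genes), 0 for TALE against dCas9 (9.38%) and 0 for both silenced groups together (3.54%).

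C10orf2, the Twinkle helicase (chromosome 10, 102747300 to 102754160, plus strand), varied most of the tested factors, with a coefficient of variation of 23.8% over the 9 libraries. It was at 16.2, 19.8 and 15.5 CPM in untreated, at 31.1, 21.4 and 19.7 in TALE and at 16.5, 17.5 and 21.6 in dCas9. TALE replicate 1 was the highest library by a wide margin, and the lowest TALE value was just under the highest untreated one. The log2 fold change was 0.49 ± 0.18 for TALE against untreated (SE; edgeR p 0.0125, adjusted p 0.585; exact permutation p 0.2) and 0.37 ± 0.17 for TALE against dCas9 (edgeR p 0.0443, adjusted p 0.770). It kept a positive sign for TALE against untreated in all 18 alternative settings, between 0.27 and 0.61.

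POLG2, the accessory subunit (chromosome 17, 62473902 to 62493172, minus strand), was at 23.8, 22.4 and 25.8 CPM in untreated, 24.6, 19.6 and 25.9 in TALE, and 25.4, 25.8 and 25.1 in dCas9. Its groups overlapped throughout, and the log2 fold changes were -0.04 for TALE and 0.08 for dCas9 against untreated. SSBP1, which coats single-stranded mitochondrial DNA (chromosome 7, 141438158 to 141450288, plus strand), was at 351, 337 and 323 CPM in untreated, 367, 321 and 414 in TALE and 391, 427 and 263 in dCas9. The highest and the lowest of all libraries were both dCas9 ones, and the log2 fold changes were 0.12 for TALE and 0.10 for dCas9 against untreated.

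Among the transcription factors, TFAM varied least. TFAM (chromosome 10, 60145170 to 60158980, plus strand) was at 264, 238 and 241 CPM in untreated, 264, 232 and 273 in TALE, and 250.0, 275 and 228 in dCas9. It had the lowest coefficient of variation of the 9, at 7.15%, and its highest library was 1.21 times its lowest. The log2 fold change was 0.05 for TALE against untreated (95% interval -0.21 to 0.30; edgeR adjusted p 0.960) and 0.02 for dCas9 (-0.24 to 0.27; adjusted p 0.997). POLRMT, the RNA polymerase (chromosome 19, 617221 to 633537, minus strand), was at 32.6, 37.7 and 40.7 CPM in untreated, 43.1, 35.4 and 33.6 in TALE and 36.7, 29.8 and 37.4 in dCas9. Its groups overlapped, with log2 fold changes of 0.02 for TALE and -0.09 for dCas9.

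TFB2M, the partner that opens the promoter for POLRMT (chromosome 1, 246703863 to 246729563, minus strand), was at 92.3, 100.1 and 102.0 CPM in untreated, 81.3, 77.6 and 95.5 in TALE, and 102, 74.2 and 64.4 in dCas9. Of the 6 treated libraries 4 lay below all untreated ones. The log2 fold change was -0.21 ± 0.15 for TALE (SE; edgeR p 0.166) and -0.29 ± 0.15 for dCas9 against untreated (edgeR p 0.0617, adjusted p 0.857). TFB1M (chromosome 6, 155577268 to 155635618, minus strand) was at 34.4, 37.3 and 34.1 CPM in untreated, 25.5, 31.4 and 40.4 in TALE, and 36.1, 38.3 and 28.6 in dCas9. TALE libraries held both its lowest and its highest value, and the log2 fold changes were -0.12 and -0.04.

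Of the regulators, NRF1 (chromosome 7, 129251561 to 129396916, plus strand) was at 16.1, 20.5 and 17.9 CPM in untreated, 20.7, 20.7 and 16.8 in TALE and 18.8, 18.5 and 17.4 in dCas9, with overlapping groups and log2 fold changes of 0.10 and 0.01. PPARGC1A (chromosome 4, 23793644 to 23891670, minus strand) had 2, 1 and 8 counts in untreated replicates 1, 2 and 3, 1, 1 and 0 in TALE, and 0, 1 and 3 in dCas9. It fell under the filter on low counts and was not tested. The summed counts were 11, 2 and 4 per group, of 28252569, 32638581 and 31380311, and 8 of the 11 came from untreated replicate 3. Fitted with no filter, its log2 fold change was -2.55 ± 1.37 for TALE against untreated (SE; edgeR p 0.0631, adjusted p 0.698) and -1.54 ± 1.28 for dCas9 (edgeR p 0.226, adjusted p 0.738), which depends on the prior count at such low counts. A count of 0 in TALE replicate 3 allows up to 0.274 CPM, counting error only.

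Other genes of the pathway, from lists chosen by function, gave 0 called genes in the 3 comparisons of groups by edgeR and 0 by DESeq2. Over all tested genes, edgeR called 0.0218% for TALE and 0.029% for dCas9 against untreated, and 0% for TALE against dCas9. DESeq2 called 9, 29 and 0 genes in the same order. For mitochondrial DNA replication and maintenance, all 19 genes were tested and the median log2 fold change was 0.06 for TALE and 0.01 for dCas9 against untreated. The 1 gene at an unadjusted p under 0.05 was FEN1, a flap endonuclease, with 82.7, 78.7 and 68.2 CPM in untreated and 102, 91.3 and 86.7 in TALE (log2 0.28; edgeR p 0.0473, adjusted p 0.696). For mitochondrial transcription and RNA processing, 23 of 23 genes were tested, with medians of 0.09 and -0.06. FASTKD3, an RNA-binding protein of mitochondria, was at 37.2, 41.4 and 37.8 CPM in untreated and at 34.8, 30.2 and 22.8 in dCas9 (log2 -0.40; edgeR p 0.0163, adjusted p 0.676). REXO2, an exonuclease for short RNA, gave 0.27 for TALE against dCas9 (edgeR p 0.0462, adjusted p 0.770).

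For the supply of nucleotides to mitochondrial DNA, 19 of 20 genes were tested, with medians of 0.06 and -0.01. SAMHD1, which breaks down deoxynucleotides, was at 34.6, 29.8 and 31.6 CPM in untreated and 51.4, 38.5 and 35.2 in TALE (log2 0.38; edgeR p 0.0147, adjusted p 0.585). In dCas9 it was at 36.3, 41.4 and 36.0 CPM (log2 0.24; edgeR p 0.104, adjusted p 0.904). All 3 TALE values and all 3 dCas9 values lay above the untreated ones. Over all tested genes, 3.54% had both silenced groups together without overlap with untreated, in either direction. For regulators of mitochondrial biogenesis, 18 of 21 genes were tested, with medians of 0.05 and 0.04. Of these, 0 had an unadjusted p under 0.05 against untreated, beside 7.15% of all genes for TALE and 5.93% for dCas9. PPARD, a nuclear receptor, gave -0.33 for TALE against dCas9 (edgeR p 0.0491, adjusted p 0.778).

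The 13 mRNAs that the mitochondrial genome itself encodes varied far more between libraries than the factors did. Their summed level was 66132, 101039 and 99702 CPM in untreated, 53440, 35386 and 59782 in TALE, and 58583, 142914 and 103029 in dCas9. All 3 TALE libraries lay below all 3 untreated ones, while dCas9 libraries ran from below to above them. The mean was 88957 ± 19779 in untreated, 49536 ± 12658 in TALE and 101509 ± 42186 in dCas9 (SD, n = 3). The difference for TALE against untreated was -0.85 on the log2 scale (exact two-sided permutation p 0.1, the smallest possible), for dCas9 against untreated 0.12 (exact permutation p 0.8) and for TALE against dCas9 -0.98 (exact permutation p 0.2). The highest library was 4.04 times the lowest. Among the tested factors that ratio ran from 1.21 for TFAM to 2.01 for C10orf2.

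Gene by gene, edgeR called 0 of the 13 mRNAs and DESeq2 0. At an unadjusted p under 0.05, 13 of 13 were lower in TALE than in untreated, with a median log2 fold change of -0.86 and 11 of 13 without overlap between groups, beside the 7.15% and 12.5% of all genes. They also gave 13 of 13 lower in TALE than in dCas9, with a median of -1.13 and 4 without overlap. Over all genes those shares were 6.38% and 9.38%, in either direction. The 13 genes come from the same few transcripts of 1 genome and are not independent. Without TALE replicate 2, the lowest library, 5 of 13 had an unadjusted p under 0.05 against untreated and the median was -0.64. With no filter on low counts, 13 of 13 were called for TALE against untreated and 13 of 13 for TALE against dCas9. For dCas9 against untreated that setting called 1 of 13. Without dCas9 replicate 1, 6 of 13 were called for TALE against dCas9. With no filter, calls over all genes also rose, and their numbers are given in the section on processing below. Leaving out 1 library at a time gave 0 to 21 calls over all genes for TALE against dCas9. No share of the tested genes is given for these settings. MT-ND5, a subunit of complex I, was at 4517, 7920 and 7875 CPM in untreated and 3793, 2227 and 3950 in TALE (log2 -1.03; edgeR p 0.00493, adjusted p 0.545). MT-CYB, of complex III, gave -0.87 in that comparison (edgeR p 0.00489, adjusted p 0.545). MT-ND6, encoded on the other strand, gave 0.65 for dCas9 against untreated (edgeR p 0.0360, adjusted p 0.799) and -1.42 for TALE against dCas9 (edgeR p 0.000129, adjusted p 0.511).

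**Figure D3:**
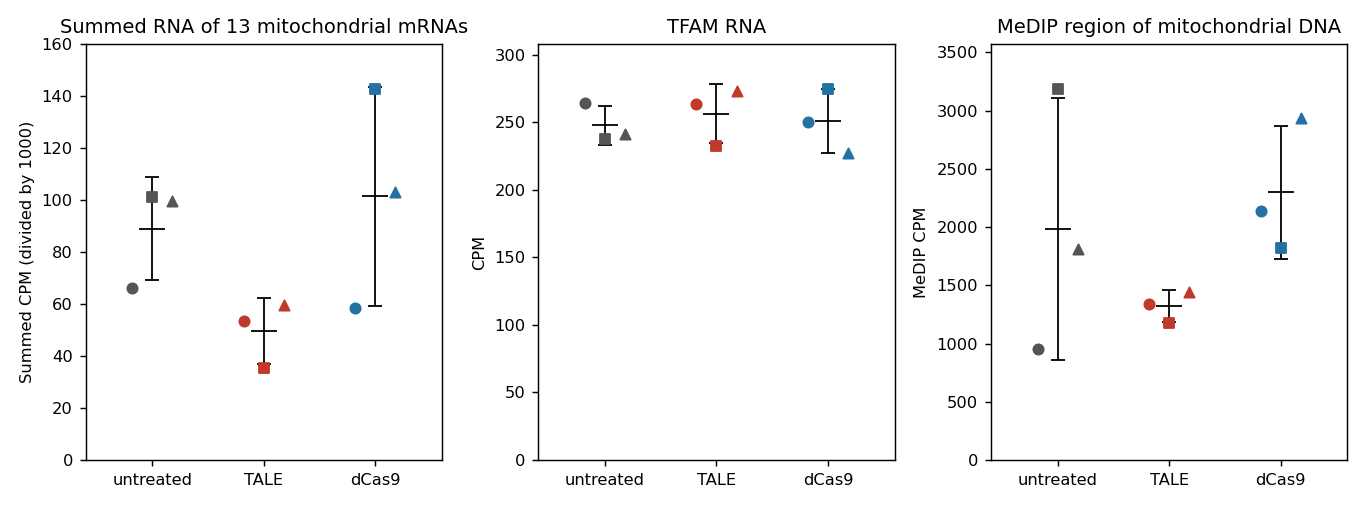
Summed level of the 13 mitochondrial mRNAs (left, CPM divided by 1000), TFAM RNA (middle, CPM) and the MeDIP level of the mitochondrial genome (right, CPM) in the 3 libraries of each group; symbols are replicates, bars are the mean and SD, and all axes start at 0. The mitochondrial mRNAs span 35386 to 142914 CPM while TFAM, the least variable of the tested factors, stays between 228 and 275 CPM.

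No relation between a factor's level and the summed mitochondrial mRNAs passed the test across the 9 RNA libraries. Pearson's r ran from -0.53 for POLG (permutation p 0.145) to 0.57 for POLG2 (permutation p 0.109), and the lowest p adjusted over the 9 relations was 0.651. For TFAM, r was 0.09 (permutation p 0.803) and Spearman's rho 0.08 (permutation p 0.843). Without TALE replicate 2 and dCas9 replicate 2, the libraries farthest from the median of the sum, r for TFAM was -0.85 over 7 libraries, so the value rests on those libraries. SSBP1 likewise went from -0.02 to -0.80, and POLG2 from 0.57 to -0.21. On deviations from the group means r was 0.31 for TFAM, 0.16 for SSBP1, -0.08 for POLG and 0.46 for POLG2.

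The mitochondrial genome was 1 region of the MeDIP table, which covered 16266 bases, nearly all of it, and a peak over it was listed in each of the 9 libraries. MeDIP captures fragments that hold 5-methylcytosine, so more copies of the genome and more methylation per copy cannot be told apart in its counts, and the libraries made without capture were not analysed here. The authors' fold enrichment of that peak ran from 8.63 to 11.9. The region held 3103, 7517 and 5809 counts in untreated, 2903, 2993 and 5265 in TALE, and 5422, 7002 and 6794 in dCas9. Scaled to depth, that was 953, 3190 and 1809 CPM in untreated, 1341, 1175 and 1446 in TALE and 2142, 1818 and 2933 in dCas9. The untreated libraries spread 3.35-fold and held both the lowest and the highest value, the TALE libraries lay close together, and all TALE values were below all dCas9 values.

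edgeR gave a log2 fold change of -0.80 ± 0.12 for TALE against dCas9 (SE; adjusted p 0.000249), the 1 region called of 105652 tested (0.000947%). The exact two-sided permutation p was 0.1, the smallest possible. That call rests on the spread edgeR shares among regions. The region's own dispersion was 13.8 times the one used, the highest of all tested regions. The SD of log2 CPM pooled within groups was 0.55, which gives an SE of 0.45 for a difference of 2 groups. By group that SD was 0.87 in untreated, which is not in this comparison, 0.15 in TALE and 0.35 in dCas9. With edgeR's robust option the adjusted p was 0.9997 and with DESeq2 0.9998, and without dCas9 replicate 3 it was 0.783 (log2 -0.58). The call was kept in 13 of 17 alternatives. For TALE against untreated the log2 fold change was -0.58 ± 0.12 (SE; edgeR p 4.58e-06, adjusted p 0.484; exact permutation p 0.5), with 0% of regions called, and for dCas9 against untreated 0.21 (adjusted p 1.00; exact permutation p 0.6), with 0.000947% called. Silenced against untreated gave -0.19, also with 0% called. The sign of dCas9 against untreated depended on single libraries: it was 0.73 without untreated replicate 2 (edgeR adjusted p 1.46e-07), -0.12 without untreated replicate 1 and -0.0034 without dCas9 replicate 3. TALE against untreated was negative in all 17 alternatives, and edgeR called it in 4 of them.

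Around the genes themselves the MeDIP table listed 88 regions within 2000 bases of a start or inside a transcript, of which 69 were tested. edgeR called 0 of the 69 in each comparison, and DESeq2 0. At an unadjusted p under 0.05 there were 4 in TALE against untreated (4.74% of all regions), 2 in dCas9 against untreated (4.69%), 1 in TALE against dCas9 (4.47%) and 5 in silenced against untreated (4.88%). Of the 88, 34 belonged to NRF1 and 19 to TFB1M.

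Near the starts, 7 regions lay within 2000 bases, at 4 of the 10 genes, against 42.5% of 18922 annotated genes. They were at C10orf2, POLG, POLRMT and TFB1M, and 3 had counts enough to test, while the 4 at POLG and TFB1M held 0 to 12 counts per library. The one at C10orf2 (chr10:102748527-102749160, GRCh37) covered 634 bases of coding exon 1227 bases after the start and was a peak in all 9 lists. It held 43, 26 and 32 counts in untreated, 18, 24 and 43 in TALE and 38, 31 and 40 in dCas9, with log2 fold changes of -0.19 and 0.19 against untreated and overlapping groups. The region inside POLRMT, 1634 bases after the start, held 122, 84 and 116 counts in untreated, 116, 98 and 112 in TALE and 89, 113 and 101 in dCas9. No peak of any library came within 250 bases of any of the 10 starts, where 6.25% of all genes have one. For PPARGC1A, the nearest region was 173738 bases from the start.

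**Figure D4:**
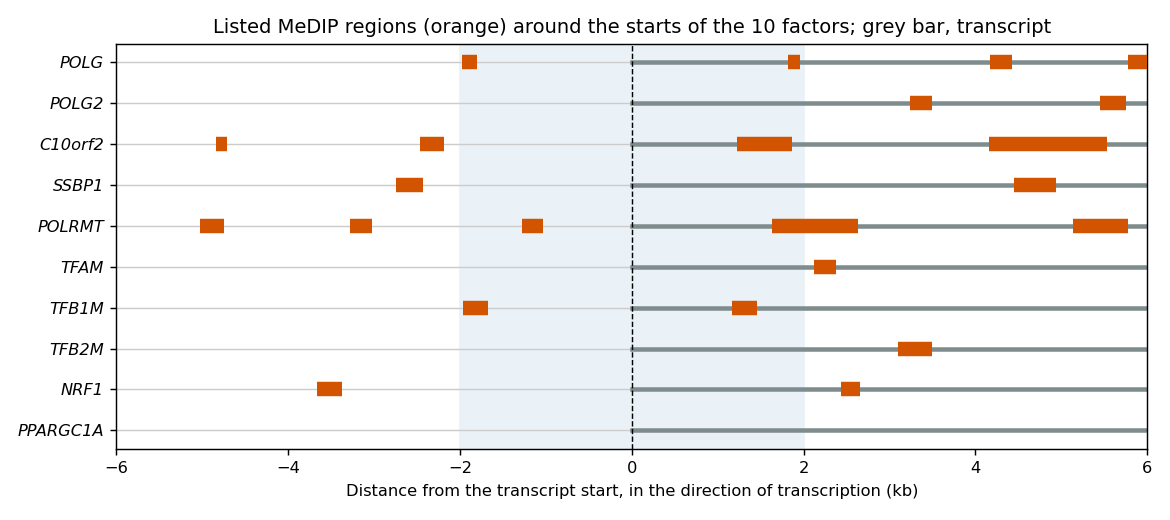
Position of listed MeDIP regions (orange) relative to the transcript start of each gene (x axis, kb in the direction of transcription; grey bar, transcript; shaded, 2 kb on either side of the start). No region overlaps a start, and PPARGC1A has none in the window.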

How the data were processed

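RNA-seq and MeDIP-seq counts were taken as the authors deposited them, as whole-number counts per gene symbol and per listed region. Per the submitters' processing notes, STAR 2.3.0 was used for RNA and BWA 0.7.5, Picard, MACS2 and bedtools for MeDIP, on hg19, without settings. The counter, annotation and use of strand are not given in the sources used here, so overlapping or antisense genes may share counts. The deposited peak lists, 1 per MeDIP library, give a fold enrichment (ratio), a score and −log10 p and q values from the authors, used only to describe peaks. Per the labels, cDNA was amplified from total RNA, and MeDIP libraries were pooled before capture.

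edgeR 4.0.16 (R 4.3.3; TMM, filterByExpr with a minimum of 10 counts) fitted all 9 libraries of each assay in 1 model. This left 13786 genes and 105652 regions. Adjusted p-values are Benjamini-Hochberg over all of these. CPM are TMM-scaled; single values were compared by exact permutation of log2(CPM + 0.5). Correlations used scipy 1.17.1. Positions came from GENCODE on GRCh37 and promoter sequences from RefSeq (GRCh38.p14). The alternatives were DESeq2 1.42.0, other scalings and filters, a replicate block and leaving out each library. The scripts were tested on simulated data. All 10 members were named, with the called genes of each list and up to 2 of its genes with the smallest unadjusted p under 0.05 per comparison. The members and lists were chosen with earlier results of these data known.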

Additional observations from a re-analysis of the deposited data

How the results depend on the processing

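The count of called factors was 0 of 9, and that of called MeDIP regions near them 0, in every comparison under all 18 alternatives run (17 for silenced against untreated). Leaving out 1 library at a time moved the sign of small fold changes, none of them called. For TALE against untreated the log2 values ran from -0.12 to 0.076 for POLG2, -0.094 to 0.092 for POLRMT and -0.31 to 0.024 for TFB1M. With dCas9 against untreated they ran from -0.054 to 0.084 for TFAM, -0.011 to 0.22 for C10orf2, -0.045 to 0.28 for SSBP1, -0.18 to 0.0060 for POLRMT, -0.12 to 0.079 for TFB1M and -0.074 to 0.11 for NRF1. Between TALE and dCas9 they ran from -0.039 to 0.10 for TFAM, -0.16 to 0.17 for SSBP1, -0.0042 to 0.18 for POLRMT, -0.27 to 0.062 for TFB1M and -0.057 to 0.29 for TFB2M. For both silenced groups they ran from -0.0023 to 0.084 for TFAM, -0.024 to 0.079 for POLG2, -0.12 to 0.037 for POLRMT and -0.029 to 0.15 for NRF1. Scaling by total counts alone gave 0.037 for POLG2 (TALE against untreated), -0.00074 for TFAM and -0.0015 for NRF1 (dCas9 against untreated), 0.0096 for TFB1M (TALE against dCas9) and 0.0029 for POLRMT (silenced), and upper-quartile scaling gave -0.011 for POLRMT (TALE against untreated); the cause was not tested.

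Over all genes, calls for TALE against untreated, dCas9 against untreated, TALE against dCas9 and silenced were 3, 4, 0 and 5. DESeq2 gave 9, 29, 0 and 36, and no filter 74, 89, 77 and 79. At least 10 counts in every library gave 1, 2, 0 and 3. Scaling by total counts gave 13 for silenced, and fitting only the groups compared gave 8 for dCas9. Without 1 library the counts ran from 2 to 16, 2 to 10, 0 to 21 and 2 to 33. Same-numbered libraries did not deviate together (r from -0.26 to 0.10 for RNA, 1 of 9 pairs over 0.1), while a pair with unlike numbers reached 0.22. With so few libraries per group, the check cannot tell whether same-numbered ones shared a culture or day. The main fit had no replicate block. Adding one gave 2 calls for dCas9 against untreated and changed no other call.

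For the mitochondrial MeDIP region, TALE against untreated was called with at least 10 counts in every library (log2 -0.59, edgeR adjusted p 2.07e-14), and ran from -0.92 to -0.064 without 1 library. It was also called without TALE replicate 3 (edgeR adjusted p 0.0413), untreated replicate 1 (1.16e-15) and untreated replicate 3 (0.0191). Calls were likewise gained for dCas9 against untreated without untreated replicate 2 (edgeR adjusted p 1.46e-07) and for silenced without untreated replicate 1 (1.85e-06). The call for TALE against dCas9 was lost with DESeq2 (-0.80), with edgeR's robust option (-0.80, added after seeing the data), with no filter (-0.80, edgeR adjusted p 0.527) and without dCas9 replicate 3, with a range of -0.94 to -0.58 without 1 library. The ranges were -0.12 to 0.73 for dCas9 against untreated and -0.52 to 0.33 for silenced. The mitochondrial mRNA sum for dCas9 against untreated ran from -0.17 to 0.47. Depth limits PPARGC1A, at 8 counts or fewer per library.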

Other observations

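Across the 9 library pairs with the same name, the MeDIP level of the mitochondrial genome and the summed mitochondrial mRNAs gave Pearson's r of 0.60 (exact permutation p 0.0895) and Spearman's rho of 0.60 (exact permutation p 0.0968). Without the 2 libraries farthest from the median r was 0.67, and on deviations from the group means it was 0.36. The relation was added after the data were seen, and whether paired libraries came from the same cells is not given in the labels.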
